A study of Homo sapiens with 16 samples.

Results

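In hypoxic PC3 cells, HIF-2α ChIP-seq gave 154 sites, defined as merged peaks that overlapped by at least 1 bp between both PC3 replicates, out of 1134 HIF-2α sites in the 4 cell lines together. Each PC3 site was compared with every HIF-2α peak of the other lines. A HIF-2α peak of at least 1 library of another line overlapped 114 of the 154 sites (74.0%, Wilson 95% interval 66.6 to 80.3), which are called shared. The remaining 40 sites (26.0%, 19.7 to 33.4) had no such peak and are called PC3-only. The reverse question was which HIF-2α sites of A549, HCT116 and T47D had no HIF-2α peak in either PC3 library.

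ChIP-seq recovers the DNA bound by a protein and lists the stretches of genome, or peaks, at which that DNA accumulates. Libraries came from PC3 (prostate cancer), A549 (lung cancer), HCT116 (colorectal cancer) and T47D (breast cancer) cells kept at 0.5% oxygen for 16 hours and precipitated with rabbit polyclonal antibodies against HIF-1α (PM14) or HIF-2α (PM9), with 2 libraries per line and antibody. Every group was hypoxic, no normoxic or control library was used here, and each tissue was represented by 1 line, so that line, tissue of origin and culture medium cannot be told apart (PC3 and A549 grew in F12K, T47D in DMEM, HCT116 in McCoy's 5a). Peak lists hold no expression, so the identity of the cells could not be checked against marker genes.

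HIF-2α is one of the oxygen-regulated α-subunits of the hypoxia-inducible factors. When oxygen falls it escapes prolyl hydroxylation, pairs with the constitutive partner HIF-1β and binds DNA at the core sequence RCGTG, that is, ACGTG or GCGTG. HIF-1α binds the same core and favours promoters such as those of the glycolytic genes, whereas HIF-2α is known for binding far from promoters and for differing between cell types.

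The PC3 HIF-2α libraries were unequal. Replicate 1 held 275 peaks and replicate 2 held 1290, against 423 to 1382 in the 6 HIF-2α libraries of the other lines. The short replicate 1 list therefore limits the 154 sites, and values that depend on it are given for each replicate. Read depth is unknown, and a missing peak may lie below the authors' threshold. In chromatin from many cells, binding in fewer cells and weaker binding per cell cannot be told apart. Peak scores are the peak caller's own, started at about 50 in every list (lowest 50.05 and 50.02 in the PC3 libraries) and have no stated scale, so they are used as ranks: the percentile of a site is the share of its library's peaks with a score no higher. The labels do not say whether replicates were separate cultures, so a p-value measures only the spread between these libraries, which may be technical.

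Sequences of 2 or 3 of the best-ranked sites of each kind are printed on the forward strand of GRCh37, as 121 bases around an RCGTG copy. The copy chosen had its 121 bases inside the site and outside annotated UTRs, and it was not in every case the one closest to the centre of the site. That of TUBGCP2 lay 271 bp from the centre, although the site also had 3 copies in its central 200 bp. Capitals mark each copy of RCGTG on either strand (CACGT and CACGC are its reverse complements). The PC3-only sites are shown first, since no HIF-2α list of another line holds them.
VOPP1, chr7:55766764-55766884: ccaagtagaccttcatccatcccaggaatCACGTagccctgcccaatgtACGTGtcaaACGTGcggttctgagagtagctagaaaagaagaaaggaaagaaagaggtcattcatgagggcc
TUBGCP2, chr10:135107420-135107540: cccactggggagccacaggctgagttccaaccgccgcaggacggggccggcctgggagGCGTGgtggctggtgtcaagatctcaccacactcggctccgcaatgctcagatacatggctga
APOBEC3H, chr22:39486520-39486640: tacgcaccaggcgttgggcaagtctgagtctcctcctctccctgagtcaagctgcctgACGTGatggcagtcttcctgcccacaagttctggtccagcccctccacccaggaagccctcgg
The best 2 shared sites follow, to set beside them.
BHLHE40, chr3:5020915-5021035: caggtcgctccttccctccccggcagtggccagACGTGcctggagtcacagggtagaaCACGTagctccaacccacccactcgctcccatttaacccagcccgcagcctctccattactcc
SNAPC1, chr14:62218017-62218137: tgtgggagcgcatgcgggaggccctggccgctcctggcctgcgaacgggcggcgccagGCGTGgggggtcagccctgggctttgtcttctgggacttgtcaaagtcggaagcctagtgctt
The last set comes from the best sites of the other lines that were missing in PC3.
MEGF6, chr1:3427088-3427208: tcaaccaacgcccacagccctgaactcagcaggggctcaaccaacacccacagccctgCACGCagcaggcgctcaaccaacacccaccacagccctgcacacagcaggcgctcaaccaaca
SLC45A1, chr1:8262371-8262491: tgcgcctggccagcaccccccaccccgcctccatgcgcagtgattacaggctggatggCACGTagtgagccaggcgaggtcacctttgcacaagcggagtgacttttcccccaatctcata
DNAJB12, chr10:74079635-74079755: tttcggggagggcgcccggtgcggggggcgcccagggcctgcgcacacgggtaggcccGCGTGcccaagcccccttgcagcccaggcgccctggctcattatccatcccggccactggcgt
The VOPP1 stretch held 3 copies of ACGTG and the BHLHE40 stretch 2, while the other 6 stretches held 1 each. The MEGF6 stretch is built of near-repeats of 1 short unit.

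The strongest PC3-only site lay on chromosome 7 between the genes VOPP1 and SEPTIN14 (chr7:55766198-55767671, intergenic, 126739 bp upstream of VOPP1, the nearest gene by start site, which encodes a vesicle protein). Its HIF-2α score was 248 in replicate 1 and 894 in replicate 2, the 97.45th and 99.69th percentiles. Both PC3 HIF-1α libraries also held a peak there, with scores of 460 and 1515, and no HIF-1α or HIF-2α library of another line did. The closest HIF-2α peak of another line was 40619 bp away, in HCT116.

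Below it, the second PC3-only site was centred on coding exon 6 of TUBGCP2 (chr10:135106459-135107959), a component of the γ-tubulin complex that nucleates microtubules, with HIF-2α scores of 162 and 267. The third was 6495 bp upstream of APOBEC3H (chr22:39485912-39487556), an antiviral cytidine deaminase, with HIF-2α scores of 146 and 334 and no HIF-1α peak in any of the 8 HIF-1α libraries. These 3 sites therefore differed in their HIF-1α signal although all ranked above the 95th percentile on average.

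The fourth site (chr11:65678335-65680980, scores 132 and 507) was nearest to C11orf68, with FOSL1, an AP-1 subunit 11613 bp away, among its 3 nearest genes. It was one of the PC3-only sites with a HIF-1α peak in another line, HCT116, with HIF-1α scores of 54.6 and 70.3 there and of 173 and 348 in the PC3 HIF-1α libraries. Next came intron 6 of TENM4, which encodes a teneurin adhesion protein (118 and 249), and a site 209886 bp upstream of COPS8, a subunit of the COP9 signalosome (86.8 and 231). The second nearest gene of the COPS8 site was ACKR3, an atypical chemokine receptor. Sites in intron 3 of the receptor tyrosine kinase gene ALK (79.6 and 293) and intron 12 of INPP5D, a lipid phosphatase of blood cells (77.0 and 265), ranked seventh and eighth. The tenth lay in intron 29 of CUBN, an endocytic receptor (75.1 and 232), after a site 14342 bp upstream of BLCAP (72.6 and 440.0). All 10 lay more than 1000 bp from a start site, and 9 had a HIF-1α peak in at least 1 PC3 library.

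Further down the list, the ICAM1 site, at a leukocyte adhesion molecule, spanned the start of the gene, its centre 268 bp upstream, with HIF-2α scores of 50.8 and 63.8 and HIF-1α scores of 115 and 297 in PC3. TINAGL1, a matrix protein, had the only other PC3-only site within 1000 bp of a start (560 bp upstream, 52.1 and 131). A site 3338 bp upstream of DEPP1, a stress-induced regulator of autophagy, scored 66.1 and 276 for HIF-2α and 220.4 and 524 for HIF-1α. SLC45A3, which encodes the prostate-enriched protein prostein, had a site 15980 bp downstream of its start (54.7 and 92.0). The lowest-ranked of the 40 was 1191 bp upstream of SPNS2, a sphingosine-1-phosphate exporter (50.92 and 58.04). Scores of the PC3-only sites thus ran from 50.81 to 248.07 in replicate 1 and from 51.80 to 894.25 in replicate 2.

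**Figure D1:**
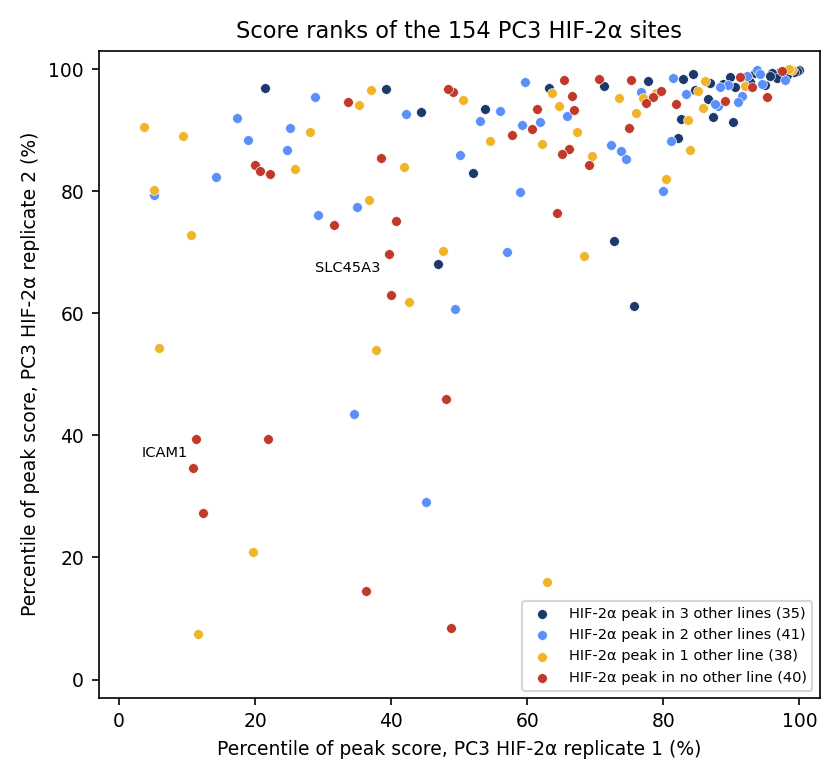
Percentile of peak score of the 154 PC3 HIF-2α sites in PC3 replicate 1 (horizontal axis, %) against replicate 2 (vertical axis, %), with 1 point per site coloured by how many other lines held a HIF-2α peak there. PC3-only sites (red, 40) spread over the whole range, and sites held by all 3 other lines (dark blue, 35) gather at the top right.

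The best shared site scored higher than the best PC3-only site in both replicates, and the best shared sites included known hypoxia targets. The best PC3-only site, at 248 and 894, scored above some of these in replicate 2. The first spanned the start of BHLHE40, a transcriptional repressor, with scores of 431 and 1067 in PC3, 2828 and 2460 in A549, 571 and 526 in HCT116, and 366 and 521 in T47D. The second, 11061 bp upstream of SNAPC1 and next to the HIF1A gene, scored 402 and 878 in PC3 and was likewise held by all 6 other libraries. STC2, a secreted glycoprotein (249 and 592), and ARRDC3, an arrestin-family adaptor (352 and 788), were also held in all 6. The site 9116 bp upstream of OR1I1, also among the 10 best, was shared with T47D alone, at scores of 898 and 1108 there and 320.5 and 1232 in PC3. High PC3 scores were therefore not confined to sites that every line held.

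Of the 114 shared sites, 38 had a HIF-2α peak in 1 other line, 41 in 2 and 35 in all 3. A549 held 96 of them, HCT116 83 and T47D 46, in the order of the lengths of their lists. Overlaps were clear of the 1 bp limit: the smallest overlap of a shared site was 428 bp, and the smallest gap between a PC3-only site and a HIF-2α peak of another line was 1004 bp, at the GADD45B site on chromosome 19 (T47D). The next gap was 11427 bp, and the median was 204146 bp.

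The share of sites without a HIF-2α peak elsewhere was 26.0% in PC3, 51.2% in A549 (395 of 772), 33.1% in HCT116 (116 of 350) and 51.1% in T47D (92 of 180), or 44.2% over the 4 lines. The 95% Wilson interval of PC3 (19.7% to 33.4%) overlapped that of HCT116 (28.4% to 38.2%). When the 275 best peaks of each library were used, the shares were 35.8% in PC3, 49.8% in A549, 39.4% in HCT116 and 55.1% in T47D, so that PC3 and HCT116 came closer together and PC3 was still the lowest. Among single peaks, which need no second replicate, 55.6% (153 of 275) and 60.0% (774 of 1290) of the PC3 peaks were line-only, 57.8% ± 3.09 (SD, n = 2), against 67.6% ± 5.58 (n = 6) in the other libraries. The difference of -9.74 points did not pass a 2-sided exact permutation test over the 8 libraries (p = 0.107, p = 0.536 after Benjamini-Hochberg adjustment over 5 such tests). With 28 splits of 2 against 6 libraries the smallest p is 0.0357, so that 1 test alone could not pass 0.05 after adjustment. The 2 libraries of a line are not independent units for a comparison of lines, so these p-values describe libraries only. The tested share is also the value that sets the PC3-only class, and the share of each line depends on the lists of the others. The test therefore cannot decide whether PC3 differs. With cell lines as units the difference was again -9.74 points, and 1 PC3 line against 3 others is too few to pass 0.05.

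PC3-only sites lay farther from start sites than the shared sites, and their centres were intergenic about as often (55.0%, 39.8 to 69.3, against 60.2%, 51.0 to 68.7). Measured to the closest protein-coding start, their median distance was 25326 bp (quartiles 6415 to 91548), against 10370 bp (832 to 39193) for 113 shared sites, the remaining shared site lying outside the assembled chromosomes. The difference lay at promoters. Within 1000 bp of a start lay 2 of 40 PC3-only sites (5.00%, 1.38 to 16.5), at ICAM1 and TINAGL1, and 29 of 113 shared sites (25.7%, 18.5 to 34.4). The sites held by all 3 other lines stood apart within the shared class, with 19 of 35 (54.3%, 38.2 to 69.5) at a start, among them ALDOA, GPI, LDHA and PDK1 of glucose metabolism, the collagen hydroxylase P4HA1 and the histone demethylase KDM4B. Median distances were 20533 bp for sites held by 1 other line, 24546 bp for 2 and 524 bp for 3. Beyond 1000 bp the classes were close, with medians of 27944 bp for 38 PC3-only and 23631 bp for 84 shared sites.

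**Figure D2:**
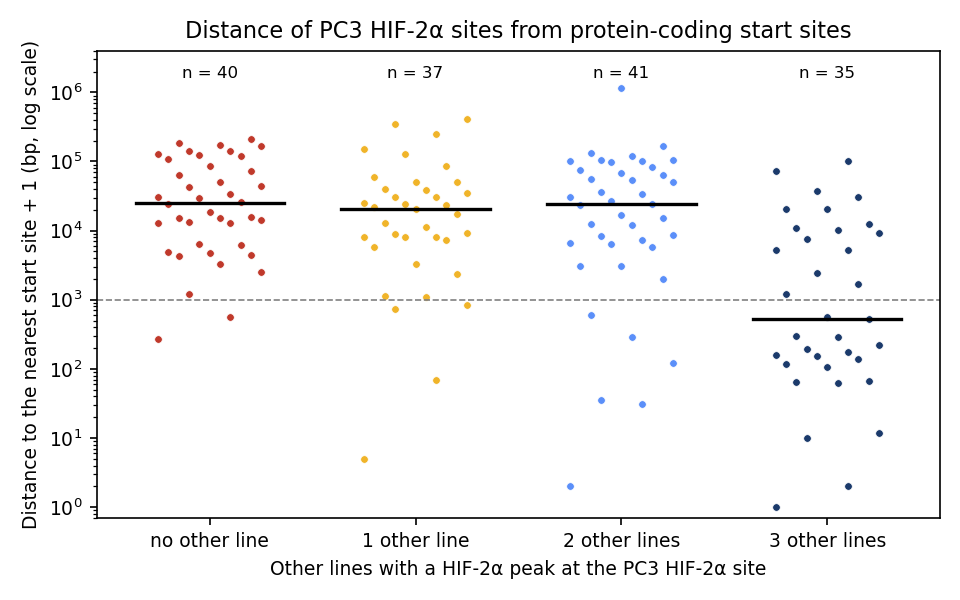
Distance from the centre of each PC3 HIF-2α site to the nearest protein-coding start site plus 1 (bp, log scale), by the number of other lines with a HIF-2α peak there, with medians as black bars and 1000 bp as a dashed line. The median is 524 bp for the 35 sites held by all 3 other lines and 20533 to 25326 bp in the other columns, and 2 of 40 PC3-only sites lie below the dashed line.

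This contrast differed between the 2 PC3 libraries. Over single peaks, the median log10 distance of line-only minus shared peaks was 0.57 in replicate 1 (43187 against 11632 bp) and -0.03 in replicate 2 (13235 against 14168 bp). The mean was 0.27 ± 0.42 (n = 2) in PC3 and 0.66 ± 0.60 (n = 6) in the other libraries, where T47D stood highest at 1.47 and 1.39 (2-sided exact permutation test, p = 0.500, adjusted p = 1.0).

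HIF-1α peaks, which were not used in choosing the sites, differed between the classes by cell line. The classes were set by HIF-2α peaks of the same other lines, and HIF-1α binds the same core. The difference in HIF-1α of other lines is therefore no independent evidence. In PC3 itself, 32 of 40 PC3-only sites (80.0%, 65.2 to 89.5) and 102 of 114 shared sites (89.5%, 82.5 to 93.9) overlapped a peak of at least 1 PC3 HIF-1α library. These shares rest on HIF-1α replicate 2, the longer list. Without it they were 47.5% (19 of 40, 32.9 to 62.5) and 65.8% (75 of 114, 56.7 to 73.9), and the difference went from -9.47 to -18.3 points. In the other lines, a HIF-1α library held a peak at 4 of 40 PC3-only sites (10.0%, 3.96 to 23.1) and at 84 of 114 shared sites (73.7%, 64.9 to 80.9). Of the 40 PC3-only sites, 28 (70.0%, 54.6 to 81.9) had HIF-1α in at least 1 PC3 library and in no other line. In the peaks of replicate 1 alone, 2.61% of line-only and 72.1% of shared peaks had a HIF-1α peak in another line, and in those of replicate 2 alone 21.2% and 59.1%. An exact permutation test of this contrast over the 2 and 2 values of the PC3 libraries could not go below p = 0.333, and none was made.

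The 4 PC3-only sites with a HIF-1α peak elsewhere were nearest to C11orf68, SH3PXD2A, SLC45A3 and SPNS2, and the peaks were in HCT116 each time. HCT116 had the longest HIF-1α lists (4505 and 4465 peaks, against 382 to 761 in A549 and T47D). A549 and T47D held a HIF-1α peak at none of the 40, a count of 0 that allows a share of up to 7.50% by a limit of 3 counts, or 8.76% by the Wilson interval. The PC3 HIF-1α lists held 1517 and 3413 peaks, and the part that list length plays in these shares was not tested. The 8 PC3-only sites with no HIF-1α peak in PC3 were nearest to APOBEC3H, PXN (the focal adhesion protein paxillin), TMEM255B, ETS1 (a transcription factor), WNT9A (a secreted ligand), DIP2C, RPLP1 and ZNF267. The second site near SNAPC1 (6431 bp upstream, HIF-2α scores 249 and 448 in PC3) was the strongest shared site with no HIF-1α peak in any library, although A549 and HCT116 held HIF-2α there.

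The share with HIF-1α elsewhere was higher the more lines held HIF-2α: 17 of 38 sites held by 1 other line (44.7%), 32 of 41 held by 2 (78.0%) and all 35 held by 3. The gap was also present away from promoters, where 4 of 38 PC3-only sites (10.5%) and 56 of 84 shared sites (66.7%) had a HIF-1α peak in another line. For comparison, HIF-1α of other lines lay at 19% of A549-only, 44% of HCT116-only and 1.09% of T47D-only HIF-2α sites. At the shared sites of these lines the shares were 75.1%, 72.6% and 89.8%, so the contrast was not particular to PC3. A HIF-1α peak of the same line lay at 21.8%, 70.7% and 30.4% of the line-only sites and at 43.5%, 81.2% and 85.2% of the shared sites.

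**Figure D3:**
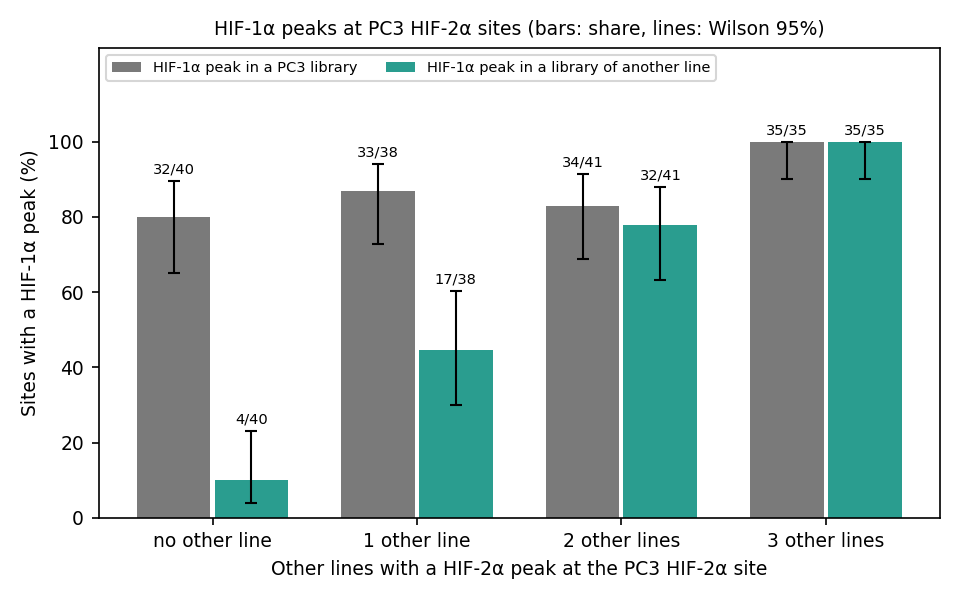
Share of PC3 HIF-2α sites (%) that overlap a HIF-1α peak in a PC3 library (grey) or in a library of another line (green), by the number of other lines with a HIF-2α peak, with Wilson 95% intervals and counts. Grey bars, for a peak in either PC3 HIF-1α library, stay between 80.0% and 100% (47.5%, 39.5%, 61.0% and 100% with HIF-1α replicate 1 alone, not drawn), while green bars go from 10.0% at PC3-only sites to 100% at sites held by all 3 other lines.

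Over single peaks, the share with a HIF-1α peak of the same line was lower among line-only than among shared peaks in all 8 HIF-2α libraries. In PC3 the difference was -64.0 points in replicate 1 (22.9% against 86.9%) and -24.3 points in replicate 2 (42.8% against 67.1%). The mean of -44.1 ± 28.1 (n = 2) compared with -45.4 ± 20.4 (n = 6) in the other libraries (2-sided exact permutation test, p = 0.929, adjusted p = 1.0).

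**Figure D4:**
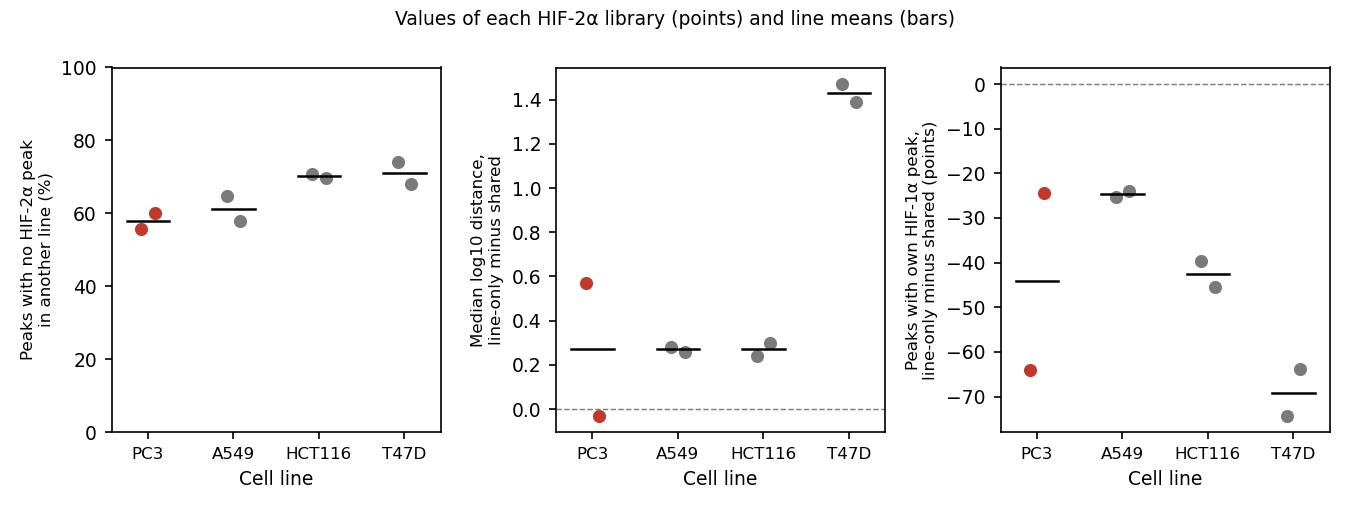
Values of the 8 HIF-2α libraries (points, PC3 in red) and line means (bars): peaks with no HIF-2α peak in another line (%), median log10 distance of line-only minus shared peaks, and percentage points of peaks with a HIF-1α peak of the same line, line-only minus shared. The PC3 points lie far apart for distance, at 0.57 and -0.03, and for HIF-1α, at -64.0 and -24.3, and for HIF-1α within the range of the other lines.

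Both strands of the middle 200 bp of each site were searched for the RCGTG core. It occurred in 21 of 40 PC3-only sites (52.5%, 37.5 to 67.1) and 67 of 113 shared sites (59.3%, 50.1 to 67.9), intervals that overlap. Windows of the same length 5000 bp to either side held it in 36.2% and 26.1% of cases. The PC3-only sites of VOPP1, APOBEC3H and C11orf68 had no copy in the central 200 bp but 9, 5 and 2 copies in the whole site. Over single peaks, the difference in the share with the core, line-only minus shared, was -39.6 and -13.9 points in the PC3 replicates. The PC3 mean was -26.8 ± 18.1 (n = 2) and that of the other libraries -26.7 ± 14.0 (n = 6, 2-sided exact permutation test, p = 1.0, adjusted p = 1.0).

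Motifs of other factors were counted in the same windows. The AP-1 motif TGANTCA was in 12 of 40 PC3-only sites (30.0%, 18.1 to 45.4), 21 of 113 shared sites (18.6%, 12.5 to 26.7) and 6.25% and 5.31% of the flanking windows. Sites held by 2 other lines had it as often, in 14 of 41 cases (34.1%). TGANTCA is its own reverse complement, and a CACGTG counts as 2 overlapping copies of RCGTG. Sites near WNT9A and DIP2C held 15 and 19 copies over their whole length. GGAATG, the motif of TEAD factors, was in 15.0% of PC3-only and 28.3% of shared sites, and AGATAA, that of GATA factors, in 0 of 40 and 11 of 113, with overlapping Wilson intervals (0 to 8.76% and 5.52 to 16.6%). Over the whole site AGATAA was in 52.5% of PC3-only and 45.1% of shared sites. CpG dinucleotides were a median of 4 per 200 bp in PC3-only sites and in sites held by 1 or 2 other lines, and 17 in sites held by all 3.

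By score, the classes overlapped throughout. The median of the mean percentile was 74.5 for PC3-only and 80.0 for shared sites, and 72.1, 78.7 and 90.8 for sites held by 1, 2 and 3 other lines. Median scores were 62.9 against 70.6 in replicate 1 and 172 against 219 in replicate 2. Scores come from the lists that also defined the classes, so these are descriptions. Over single peaks, the median percentile of line-only minus shared peaks was -33.4 ± 3.36 in PC3 (n = 2) and -34.2 ± 7.37 in the other libraries (n = 6, 2-sided exact permutation test, p = 0.893, adjusted p = 1.0). This test used scores and classes of the same lists, so it adds no evidence to the description.

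Genes were assigned to lists by the 3 protein-coding genes nearest to each site, at any distance. Of 47 genes of the study's consensus hypoxia signature, none was near a PC3-only site and 24 (51.1%) were near a shared site, against 0.601% and 1.58% of all 19794 coding genes. The study chose that signature partly on these libraries, so it is no independent evidence. At 0.601% of all coding genes, lists this short are likely to hold no gene near a PC3-only site. The counts of 0 for PC3-only sites here are therefore near that share and set no list apart. Counts were alike for glucose metabolism (0 and 9 of 22 genes, with ALDOA, ENO1, GPI, LDHA, PDK1, PGK1 and the glucose transporter SLC2A1) and for oxygen sensing and HIF feedback (0 and 6 of 15, with BHLHE40, EGLN3, KDM3A and KDM4B). The 9 glucose genes also took in PFKFB3, 75233 bp from its shared site, and PFKP, 629941 bp from a site nearest to KLF6. Of 8 genes of acid and lactate transport, the lactate exporter SLC16A3 was near a shared site and none near a PC3-only site. Genes often named as HIF-2 targets gave 0 and 6 of 17, vascular factors 0 and 4 of 18, and matrix and adhesion genes 0 and 5 of 28. PC3-only sites were near FOSL1, 1 of 12 AP-1 genes, and SLC45A3, 1 of 16 prostate and androgen-response genes. No gene of the lung, colon or breast lists was near a PC3 site of either class.

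Turning to binding missing in PC3, the 3 other lines had 1080 merged HIF-2α sites, of which 709 (65.6%, 62.8 to 68.4) had no HIF-2α peak in either PC3 library. With replicate 1 as the only PC3 list 90.5% were missing, and with replicate 2 alone 65.9%. The share differed with how widely a site was held: 665 of 904 sites found in both replicates of 1 other line were missing (73.6%), 40 of 130 found in 2 lines (30.8%) and 4 of 46 found in 3 (8.70%, 3.43 to 20.3). It also varied with rank. In HCT116, 22 of 87 sites in the top score quartile were missing (25.3%) and 62 of 88 in the bottom quartile (70.5%). In A549 the shares were 40.9% and 74.6%, and in T47D 46.7% and 82.2%.

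**Figure D5:**
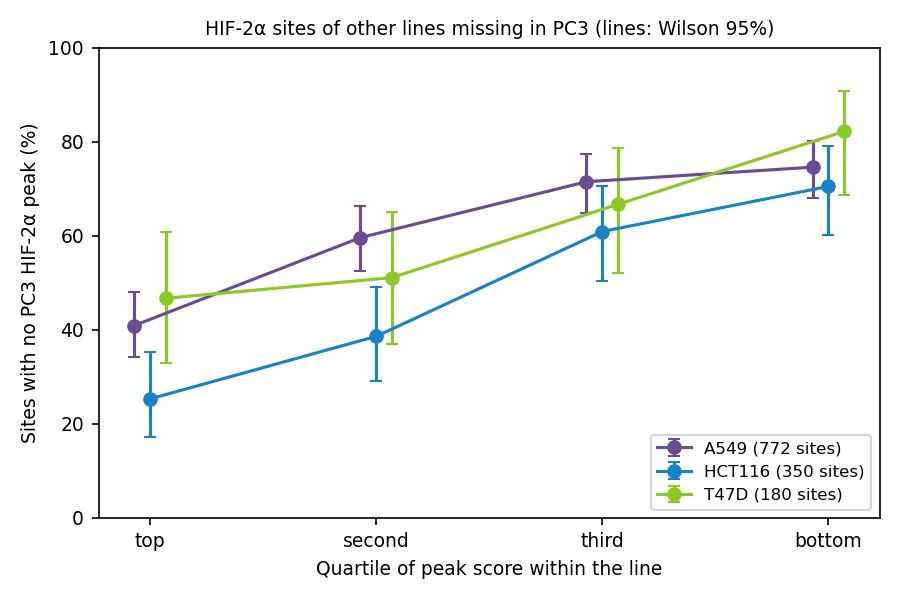
Share of HIF-2α sites of A549, HCT116 and T47D without a HIF-2α peak in either PC3 library (%), by quartile of peak score within the line, with Wilson 95% intervals. In each line the share rises from the top to the bottom quartile, from 40.9% to 74.6% in A549, 25.3% to 70.5% in HCT116 and 46.7% to 82.2% in T47D.

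The 4 sites of all 3 other lines that PC3 lacked were near DDIT4, TRIM55, FUT11 and SIAH2. The DDIT4 site (chr10:74019796-74021616, 12972 bp upstream of this inhibitor of mTORC1) scored 1392 and 1367 in A549, 360.0 and 184 in HCT116 and 86.9 and 189 in T47D. All 6 HIF-1α libraries of the other lines also had a peak there, with scores from 298 to 1350, and neither PC3 HIF-1α library did. The TRIM55 site (chr8:67035866-67037368, 2514 bp upstream of a muscle RING-finger protein) scored 648 and 379 in A549, 88.5 and 68.5 in HCT116 and 230.3 and 287 in T47D, again without a PC3 peak for either antibody.

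FUT11, a fucosyltransferase, and SIAH2, a ubiquitin ligase that acts on the HIF prolyl hydroxylases, were unlike these. Both sites spanned a start, and both had HIF-1α peaks in PC3, with scores of 425 and 1397 at FUT11 and 135 and 211 at SIAH2. Their HIF-2α scores in the other lines ran from 73.2 to 173 at FUT11 and from 56.6 to 211 at SIAH2. These 4 sites thus fell into 2 with and 2 without HIF-1α binding in PC3.

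By mean percentile in the lines that held them, the best-ranked of the 44 missing sites of 2 or more lines was in intron 10 of MEGF6 (chr1:3426205-3428094), an EGF-like domain protein, with scores of 661 and 641 in A549 and 930.2 and 530 in HCT116. The second lay 115763 bp upstream of SLC45A1, a sugar transporter (897 and 633 in A549, 160 and 185 in HCT116). PC3 had a HIF-2α site of its own 8506 bp from this one, also nearest to SLC45A1 and shared with A549 and HCT116. A HIF-2α peak of PC3 replicate 2 lay closer, 3178 bp from the missing site. The third (chr10:74078941-74080352), between DNAJB12 and DDIT4, scored 640.0 and 643 in A549, 122 and 107 in HCT116, and had HIF-1α scores of 60.3 and 122 in PC3. DDIT4 was among the nearest genes of 5 missing sites and of none of the 154 PC3 sites found in both replicates. The nearest PC3 HIF-2α peak was in replicate 2 alone. It lay 20952 bp from the DNAJB12 site and 35281 bp from the DDIT4 site that every other line held.

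Among the remaining sites of the first 10, CITED2 encodes a protein that competes with HIF-α for the coactivators p300 and CBP. The site at its start scored 261 and 305 in A549 and 152 and 239 in T47D, and 1 of the 2 PC3 HIF-1α libraries had a peak (130, replicate 2). The site 133215 bp downstream of MYC, a growth regulator, scored 345 and 147 in A549 and 194 and 237 in T47D. The nearest PC3 HIF-2α peak, in replicate 2, lay 15069 bp from the MYC site and 904668 bp from the CITED2 site. RIOK1, HPCAL1 and ARHGAP26 were nearest to the other 3, of which only the HPCAL1 site was within 1000 bp of a start. Of the 10, only the DNAJB12 site had a HIF-1α peak in both PC3 libraries, and CITED2 and MYC had one in replicate 2.

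The best-ranked missing site of a single line was 25869 bp upstream of NPY4R in A549 (2037 and 1003), 29568 bp downstream of the start of UBR4 in HCT116 (884 and 745, with a peak of 72.5 in 1 A549 library) and 8156 bp upstream of KRT19 in T47D (915 and 934). KRT19 encodes a keratin of simple epithelia, and its site had HIF-1α scores of 1047 and 1120 in T47D and 88.4 and 119 in PC3. The nearest HIF-2α peak of PC3, in replicate 2 each time, lay 12943 bp from the KRT19 site, 1158021 bp from that of UBR4 and 1541830 bp from that of NPY4R. NPY4R has a near-identical copy, NPY4R2, so the placement of its peak is uncertain.

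HIF-1α in PC3 at missing HIF-2α sites varied with their position. Among the 44 sites of 2 or more lines, 18 had a HIF-1α peak in a PC3 library (40.9%, 27.7 to 55.6). These were 13 of the 16 sites within 1000 bp of a start (81.2%, 57.0 to 93.4) and 5 of the 28 farther away (17.9%, 7.88 to 35.6). The strongest were at BNIP3L, a mitophagy receptor (858 and 1059), and ZNF292, a zinc-finger protein (615 and 1436), where HIF-2α scores elsewhere did not exceed 320.3. Glycolytic genes were of this kind too, with PC3 HIF-1α scores of 222 and 328 at PFKP and 87.0 and 243 at ENO2. Of all 709 missing sites 150 (21.2%) had a PC3 HIF-1α peak, against 260 of the 371 sites that PC3 held (70.1%). A peak in both PC3 HIF-1α libraries was found at 68 (9.59%) and 170 (45.8%) of these, and at 12 of the 44 (27.3%).

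Missing sites were not missing genes in every case. Of the 18 consensus genes near a missing site, 9 also had a PC3 HIF-2α site, among them SLC2A1, whose missing HCT116 site lay 49345 bp upstream (505 and 351), NDRG1, ADM and STC2. The other 9, with no PC3 site found in both replicates, included DDIT4, FUT11, ANGPTL4, a regulator of lipoprotein lipase, and SCD, a fatty acid desaturase. These counts took the 3 nearest genes at any distance, so they do not show which genes PC3 HIF-2α serves. The missing site of BNIP3L lay 39 bp from its start and the PC3 site counted for it 178698 bp away. For STC2 the PC3 site lay at 296 bp and the missing sites at 207469 to 262787 bp. HERC3 and MXI1 were 217897 and 154397 bp from their missing sites. Both carbonic anhydrases of the list had missing A549 sites and no PC3 site, CA12 (456 and 268) and CA9 (53.2 and 115). So did EPAS1, the gene of HIF-2α itself (188 and 229 in A549, 63522 bp upstream). The cyclin gene CCND1 had a missing HCT116 site (184 and 144) and no PC3 site. Of 12 AP-1 genes, 7 were near a missing site, with FOSL2 in 2 lines, and of 12 breast genes 4, the keratins KRT8, KRT18 and KRT19 and the trefoil factor TFF1. KRT8 and KRT18 were near the same site, held in 2 or more lines. The TFF1 site was held in both replicates by A549 alone, not by the breast line. The other lineage lists had TMPRSS2 (147576 bp away) of 16 prostate genes, GPA33 and KRT20 of 10 colon genes and SFTPB of 9 lung genes near a missing site. Those of TMPRSS2 and KRT20 were likewise held in both replicates by A549 alone. All coding genes had a missing site among their neighbours in 8.55% of cases.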

How the data were processed

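Peak lists of 16 ChIP-seq libraries, 1 per library, were used, grouped by cell line and antibody from the sample labels. According to the methods and the submitters' processing notes, the authors trimmed reads with Trim Galore 0.3.3, aligned them to GRCh37 with BWA 0.7.5a-r405, removed reads with a mapping quality under 15 (SAMtools 0.1.19), blacklisted regions (bedtools 2.17.0) and duplicates (Picard 2.0.1), and called peaks per library with MACS in control mode. The methods name pre-immune serum and input samples, but the sources used here do not give the version of MACS or which of these was its control. Each deposited peak carries the caller's own score, on an unstated scale. Later filters of the study, which used a second caller, read counts and HIF-1β, were not applied. Depth is not in the lists, which held 275 to 1382 HIF-2α peaks. Wilson intervals cover counting error only.

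Tools were Python 3.11.15, scipy 1.17.1, numpy 2.4.6, matplotlib 3.10.9 and, for sequence, pysam 0.24.0, with genes of GENCODE release 44 mapped to GRCh37 and sequence of that build. Overlap meant 1 bp or more. Distances ran from the centre of a site to the nearest protein-coding start site, with 1 added before log10. Sites were intergenic when outside the representative transcript of every coding gene. Motifs were counted in the central 200 bp. The 5 comparisons of PC3 with other lines were 2-sided exact permutation tests over libraries, adjusted by the Benjamini-Hochberg method, threshold 0.05. Functions were tested on simulated lists. The sites, gene lists, tests and alternatives were chosen with earlier results of these data known. Named were the 10 best sites of each PC3 class by mean percentile, the 10 best missing sites of 2 or more lines, the best missing site of each line alone, and members of the 12 gene lists near PC3-only or missing sites, of which 1 shared site is not reported here; shared sites near listed genes, the sites with or without HIF-1α and those at edges of a range were named after their values were seen. Alternatives were a score of at least 69.6 (the median of all HIF-2α peaks), the 275 best peaks of each library, a reciprocal overlap of 50%, sites of either replicate, a HIF-2α peak in both replicates of the other line, other start sites, motif windows and HIF-1α criteria, leaving out each library, a replicate block and cell lines as units. Missing sites judged against PC3 sites of both replicates, HIF-1α in other lines under these alternatives, and equal lists for the other lines were added after the data were seen. Replicate numbers did not pair libraries: the labels tie them to no shared batch.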

Additional observations from a re-analysis of the deposited data

How the results depend on the processing

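The values for PC3 sites varied with processing. The 154 sites became 70 with the stricter score, 85 with a reciprocal overlap of 50% and 1410 with either replicate. The share of 26.0% became 20.0%, 32.9% and 62.9% under these, 35.8% with equal lists and 35.1% where the other line had to hold the peak in both replicates. Leaving out 1 library at a time gave 154 to 1290 sites and shares of 26.0% to 60.0%, the highest without PC3 replicate 1. Of the differences between PC3-only and shared sites, that in RCGTG turned to 5.15 points with equal lists and ran from -39.6 to -0.980 without single libraries. That in log10 distance ran from -0.0296 (without PC3 replicate 1) to 0.57. The difference in mean percentile was -12.5 with the stricter score, -9.55 with equal lists, -28.7 with either replicate and -9.60 with the both-replicate rule, and -35.8 to -4.43 without single libraries. That in PC3 HIF-1α ran from -64.0 to -7.27. The difference in HIF-1α of other lines kept its direction in all 14 settings run, the reported one included, from -73.2 to -37.9 points (-40.3 with either replicate, -69.5 to -37.9 without single libraries). The share of other lines' sites missing in PC3 was 90.7% where the PC3 site had to be in both replicates, and 65.9% to 90.5% without single libraries.

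No comparison of PC3 with other lines passed 0.05 after adjustment (lowest adjusted p = 0.179 by exact permutation over 66 alternative tests), which the number of libraries alone prevents for a single test. The test treats the 2 libraries of a line as independent units, which they are not for a comparison of lines. The line-only share of each line also depends on the lists of the others. With libraries taken as independent all the same, the unadjusted exact permutation p for line-only peaks was 0.0357 with the both-replicate rule (-12.6 points). Without A549 replicate 3 it was 0.0476 (-11.6 points). Several comparisons of PC3 with other lines had differences near 0 whose sign changed. In distance this was 0.0202 with equal lists. In RCGTG it was 2.70 points with the stricter score and 4.21 over whole peaks, and in percentile -0.105 with the stricter score. Without single libraries they ran from -17.9 to -7.73 points for line-only peaks, -0.70 to -0.20 for distance, -12.4 to 12.6 for RCGTG, -0.879 to 3.12 for percentile and -15.4 to 21.2 for HIF-1α. A replicate block, pairing PC3 with T47D by replicate number, gave 14.3 points for RCGTG (exact sign-flip permutation p = 0.500, the smallest it allows) and changed no other direction.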
